A study of Mus musculus with 8 samples.

Results

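The mitochondrial ribosomal protein genes are the nuclear genes whose symbols begin with Mrpl or Mrps followed by a number. They were taken from the deposited table by that symbol pattern among protein-coding genes, which gave 78 of the 54532 listed genes. In mouse livers after ischemia and reperfusion, their mRNA levels differed little between mice with reduced METTL3 in hepatocytes and their controls. Of the 77 genes that could be tested, 0 were higher and 3 (3.90%) were lower in the METTL3-HKD livers. None of the 77 differed by as much as 2-fold. Among all 16645 genes tested, 9.05% were higher and 6.63% lower. The 3 lower genes were Mrps36, Mrpl14 and Mrpl41. When libraries were scaled by their reads on genes, Mrps36 alone was lower and 8 genes were higher. On that scale 2310 genes were higher and 374 lower among all 16675 tested.

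Mitochondria carry their own ribosome, the mitoribosome, which translates the few mRNAs encoded in mitochondrial DNA, all of them for subunits of the respiratory chain and ATP synthase. Its ribosomal RNAs come from mitochondrial DNA, whereas its proteins are made in the cytosol from nuclear mRNAs and imported. Part of these proteins descend from the bacterial ancestor of mitochondria and have counterparts in the bacterial ribosome, and the others were added later and are specific to mitochondria. Hepatocytes are rich in mitochondria, and respiration stops and restarts when the blood supply of the liver is clamped and released.

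Whole-liver RNA from 4 METTL3-HKD and 4 METTL3-Flox mice was sequenced, 1 library per mouse. METTL3-HKD mice have the genotype METTL3 flox/-; Alb-iCre, in which the albumin promoter drives the recombinase iCre in hepatocytes and exon 4 of METTL3 is flanked by loxP sites. The study describes them as heterozygous, with METTL3 reduced in the liver. It chose them because all of its mice with a hepatocyte-specific knockout died early. METTL3-Flox mice, their littermate controls, have the genotype METTL3 flox/flox. Livers of both groups underwent 1 h of ischemia and 6 h of reperfusion, so every difference given here is a difference between genotypes in injured liver, and no liver without ischemia belongs to the series. The age of these mice is not given in the sources used here. The deposited values are FPKM, fragments scaled to gene length and to a size set for each library, so that a level is a level per length. That size was 0.840 to 1.17 times the reads on genes, as described below. Reads on genes lay between 15861245 and 18434488 per liver.

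Mettl3 itself, which encodes the methyltransferase that writes N6-methyladenosine on mRNA, was measured at 1.56, 1.39, 1.17 and 1.20 FPKM in the METTL3-HKD livers and at 1.84, 1.16, 1.45 and 1.54 FPKM in the METTL3-Flox livers. The groups overlapped, and the log2 fold change was -0.16 with an adjusted p of 0.556 (limma, Benjamini-Hochberg over all genes tested). The gene level thus did not separate the groups, and directions below follow the labels. The study reports that it verified the loss of METTL3 in liver tissue of these mice. FPKM of the whole gene in whole liver is another measure and does not test that loss.

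Stretches of promoter are shown first, because the nuclear genes of the mitoribosome are known to share a few transcription factors, NRF1, the ETS factor GABP and YY1. The reference holds a window from 250 bases before to 50 bases after the start for 69 of the 78 genes (RefSeq, GRCm38.p6), with 75 windows in all since several genes have more than 1 start. Each window was searched on both strands for the letters GCGCATGCG (NRF1), CCGGAAG (ETS), AAGATGGC (YY1), CACGTG (E-box) and CCAAT. The NRF1 word was in 9.33% of the 75 windows and in 2.35% of the 21263 windows of protein-coding genes. The ETS word was in 34.7% against 11.6%, and the YY1 word in 16.0% against 3.05%. The E-box was in 9.33% against 7.84%, and CCAAT in 40.0% against 38.2%. At least 1 of the NRF1, ETS and YY1 words was in 50.7% of the windows of the family and in 15.8% of those of all protein-coding genes. Over the windows of all 27025 genes in the reference, the share was 12.5%.

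The 150 bases before the start are printed for the 3 genes that were lower in METTL3-HKD livers (Mrps36 at chr13:100744660-100744809 on the minus strand, Mrpl14 at chr17:45686199-45686348 on the plus strand, Mrpl41 at chr2:24975099-24975248 on the minus strand). They are also printed for 3 genes that did not pass the test and were picked because they hold a word there (Mrpl10 at chr11:97041432-97041581 on the plus strand, Mrpl34 at chr8:71464776-71464925 on the plus strand, Mrpl52 at chr14:54426759-54426908 on the plus strand). Sequences run 5′ to 3′ on the strand of the gene, from RefSeq on GRCm38.p6. Capitals mark an NRF1, ETS or YY1 word.
Mrps36: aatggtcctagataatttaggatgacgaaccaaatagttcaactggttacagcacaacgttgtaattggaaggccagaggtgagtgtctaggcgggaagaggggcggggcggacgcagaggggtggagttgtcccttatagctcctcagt
Mrpl14: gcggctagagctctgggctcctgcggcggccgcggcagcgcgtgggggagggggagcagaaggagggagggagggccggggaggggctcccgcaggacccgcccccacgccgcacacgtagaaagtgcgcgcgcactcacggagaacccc
Mrpl41: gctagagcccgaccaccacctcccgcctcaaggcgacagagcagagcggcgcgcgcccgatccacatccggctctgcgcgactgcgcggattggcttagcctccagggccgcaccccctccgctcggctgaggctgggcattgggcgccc
Mrpl10: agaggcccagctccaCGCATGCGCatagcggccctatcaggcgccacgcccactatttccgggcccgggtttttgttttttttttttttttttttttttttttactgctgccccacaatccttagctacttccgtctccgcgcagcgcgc
Mrpl34: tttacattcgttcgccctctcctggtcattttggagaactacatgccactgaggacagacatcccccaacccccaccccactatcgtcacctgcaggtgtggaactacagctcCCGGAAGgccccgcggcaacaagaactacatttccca
Mrpl52: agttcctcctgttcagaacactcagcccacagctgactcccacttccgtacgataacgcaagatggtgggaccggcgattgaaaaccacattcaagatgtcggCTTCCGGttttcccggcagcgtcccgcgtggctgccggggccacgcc

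Mrpl10 holds the NRF1 word on the minus strand, with its first letter 135 bases before the start. Mrpl34 holds the ETS word 37 bases before the start and Mrpl52 holds it on the minus strand 47 bases before the start. The stretches of Mrps36, Mrpl14 and Mrpl41 hold none of these words, and their full windows hold none either. The same is true of genes that did not pass the test, among them Mrpl12, Mrpl23, Mrpl47, Mrps25 and Mrps30. The printed genes therefore do not show a relation between words and calls. The windows of Mrps36 and Mrpl41 hold a CCAAT. These matches describe letters, and binding was not measured.

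With limma on log2(FPKM + 0.1) and Benjamini-Hochberg adjustment over the 16645 genes whose mean reached 0.1 FPKM, 3 of the 77 tested genes passed an adjusted p of 0.05, or 3.90%. Over all genes tested, 15.7% passed, 9.05% higher and 6.63% lower in METTL3-HKD livers. None of the 77 reached a log2 fold change of 1 in either direction, the additional threshold the study used, which 4.7% of all genes passed upward and 1.52% downward. At an unadjusted p under 0.05 there were 10 genes, 3 higher and 7 lower, or 13.0% against 31.9% of all genes. The values of the groups did not overlap for 8 genes, 2 higher and 6 lower, or 10.4% against 22.6% of all genes. The 2 higher were Mrpl21 and Mrpl19, where the background was 12.7%, and the 6 lower were Mrps36, Mrpl14, Mrpl41, Mrpl23, Mrpl18 and Mrps24, where it was 9.95%.

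Log2 fold changes ran from -0.60 to 0.38 with a median of -0.07, against a median of -0.00 over all genes tested, and 29 of the 77, or 37.7%, were positive against 49.7% of all genes. This direction turned under another scaling of the libraries, described below. The 95% intervals of all 77 genes lay within 2-fold in either direction, which held for 61.9% of all genes. The intervals of 72 of the 77 lay within 1.5-fold, or 93.5% against 32.9% of all genes. Both counts are for the deposited scaling. Intervals were not counted under scaling to the reads on genes, where the log2 fold change of Mrpl47 was 0.59, about 1.5-fold. The median standard error was 0.117 on the log2 scale for the family and 0.196 for all genes, and the median coefficient of variation within groups was 11.4% against 20.4%. This was not particular to the family. Intervals lay within 1.5-fold for 89.7% of cytosolic ribosomal protein genes and 84.2% of nuclear genes of oxidative phosphorylation, and their median standard errors were 0.118 and 0.108. Each of the 77 genes rested on 48 to 1450 reads per liver.

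**Figure D1:**
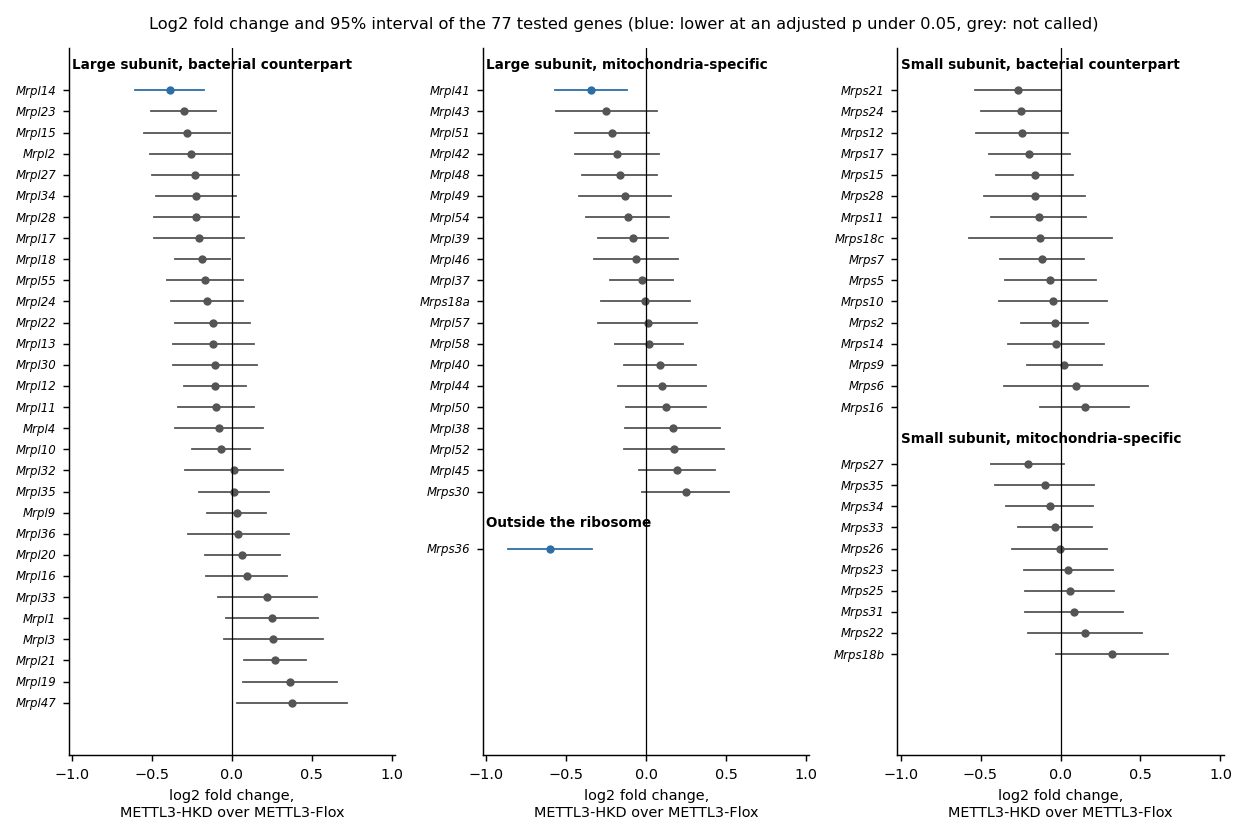
Log2 fold change of each of the 77 tested genes (points) with its 95% interval from limma (lines), METTL3-HKD over METTL3-Flox, in 3 panels by subunit and class. The 3 blue genes are those called lower; intervals of all 77 genes stay between -1 and 1, and under scaling to the reads on genes most points move to the right of 0.

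Mrps36 showed the largest difference. Although its name assigns it to the small subunit, its product is known as a component of the 2-oxoglutarate dehydrogenase complex of the citric acid cycle and is absent from structures of the mature mitoribosome. The gene (ENSMUSG00000061474) lies on the minus strand of chr13:100735955-100744659 of GRCm38. Its level was 4.45, 5.31, 5.91 and 5.36 FPKM in the METTL3-HKD livers and 8.51, 8.55, 6.92 and 8.09 FPKM in the METTL3-Flox livers. Every METTL3-HKD liver was below every METTL3-Flox liver.

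Group means of Mrps36 were 5.26 ± 0.604 and 8.02 ± 0.761 FPKM (SD, n = 4 each), which is a log2 fold change of -0.60 with a standard error of 0.115 and an adjusted p of 0.0129 (limma). The exact two-sided permutation test gave p = 0.0286, the smallest that 4 against 4 livers allow. The call held in all 19 alternatives, each omission of a liver included, with adjusted p between 0.0090 and 0.0472. The size depended on the scaling, and with libraries scaled to the reads on genes the log2 fold change was -0.39 with an adjusted p of 0.0469 (limma). Reads per liver numbered 114 to 136 in the METTL3-HKD group and 134 to 176 in the METTL3-Flox group. Processed pseudogenes with near-identical sequence could share reads with it, at 99.3% identity over 306 bases for Mrps36-ps1 and 99.0% over 309 bases for Mrps36-ps2, so its value is uncertain to that extent. Their group means were at most 0.688 FPKM. Without Mrps36, 2 of 76 genes were called.

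Mrpl14 encodes uL14m, a protein with a bacterial counterpart that sits on the face of the large subunit turned to the small subunit. The gene (ENSMUSG00000023939) lies on the plus strand of chr17:45686322-45698495. Its level was 23.3, 27.4, 25.6 and 25.5 FPKM in the METTL3-HKD livers and 38.2, 31.1, 33.0 and 31.5 FPKM in the METTL3-Flox livers. The groups did not overlap, and METTL3-Flox-1 was the highest liver. The means were 25.5 ± 1.68 and 33.4 ± 3.27 FPKM (SD, n = 4 each), with a log2 fold change of -0.39, a standard error of 0.0946 and an adjusted p of 0.0276 (limma). The call held in 12 of 19 alternatives and the sign in all. It was lost without METTL3-HKD-1, METTL3-HKD-4, METTL3-Flox-3 or METTL3-Flox-4, and when libraries were scaled to the reads on genes, where the log2 fold change was -0.17 with an adjusted p of 0.242. The fit without the mean-variance trend and the fit with the replicate block also lost it. Of its exon bases, 11.2% lie opposite Tmem63b, and the strand setting of the counting is not stated.

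Mrpl41 encodes mL41, a mitochondria-specific protein of the large subunit. The gene (ENSMUSG00000036850) lies on the minus strand of chr2:24974117-24975098. METTL3-HKD livers had 17.9, 16.7, 19.8 and 20.8 FPKM and METTL3-Flox livers had 26.8, 22.8, 22.4 and 23.4 FPKM. The groups did not overlap, but the call was close to the threshold, with a log2 fold change of -0.34, a standard error of 0.0996 and an adjusted p of 0.0479 (limma). It held in 5 of 19 alternatives and was lost when any of the 8 livers was left out, with METTL3-HKD-1 to METTL3-HKD-4 and METTL3-Flox-1 to METTL3-Flox-4 each ending it. With scaling to gene reads its log2 fold change was -0.13 with an adjusted p of 0.318. The call was also lost with no minimum level, without the mean-variance trend, with liver weights, with the replicate block and with voom on rebuilt reads.

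**Figure D2:**
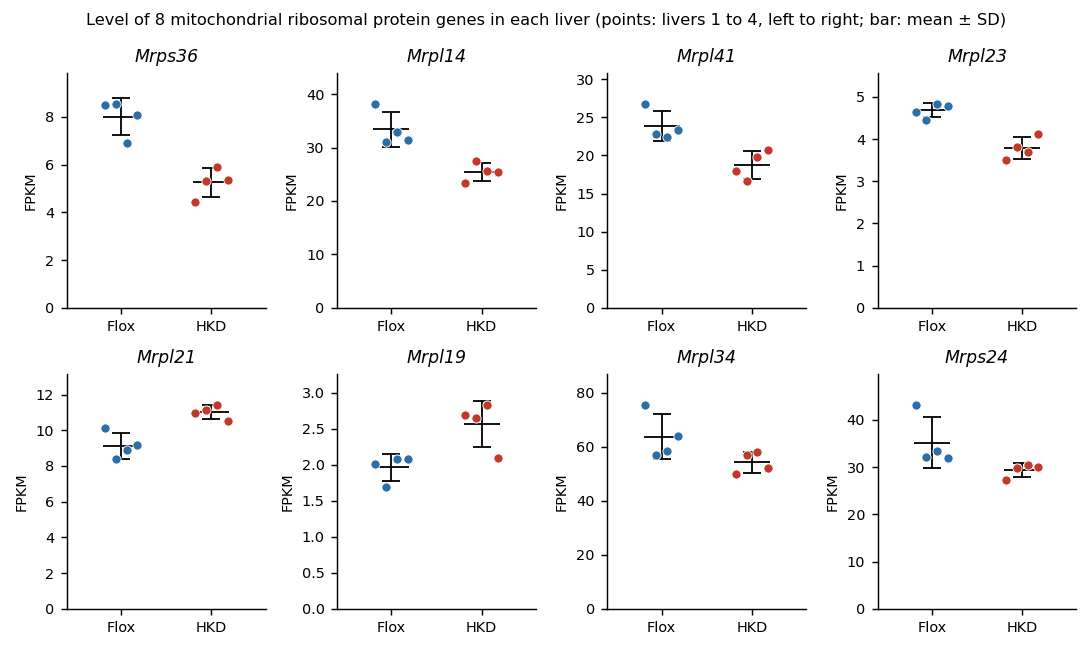
FPKM of 8 genes in each liver, with METTL3-Flox in blue and METTL3-HKD in red. Points are livers 1 to 4 from left to right, and bars give the mean ± SD of 4 livers. Mrps36, Mrpl14, Mrpl41, Mrpl23 and Mrps24 are lower without overlap, Mrpl21 and Mrpl19 are higher without overlap, and METTL3-Flox-1 is the highest liver for Mrpl34 (75.5 FPKM) and Mrps24 (43.2 FPKM).

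Among the 30 large subunit proteins with a bacterial counterpart, Mrpl14 was the only gene called, the median log2 fold change was -0.10, and 12 genes had a positive value. The genes next to the threshold pointed both ways. Mrpl23 encodes uL23m, which lies beside the exit of the tunnel through which the new peptide leaves. It was measured at 3.50, 3.81, 3.70 and 4.13 FPKM in the METTL3-HKD livers and at 4.64, 4.46, 4.84 and 4.80 FPKM in the METTL3-Flox livers, without overlap. Its log2 fold change was -0.30 with an adjusted p of 0.0523 (limma), and its pseudogene Mrpl23-ps1, at a mean of 1.20 FPKM, is identical over 507 bases. Mrpl18 encodes uL18m of the central protuberance. Its values were 17.3, 17.2, 17.5 and 17.0 FPKM against 20.9, 20.2, 19.6 and 18.0 FPKM, also without overlap, with a log2 fold change of -0.19 and an adjusted p of 0.128 (limma). Tcp1, at a mean of 24.2 FPKM, lies opposite 10.1% of the exon bases of Mrpl18.

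Mrpl21 encodes bL21m. Its level was 11.0, 11.1, 11.4 and 10.5 FPKM in the METTL3-HKD livers and 10.1, 8.37, 8.86 and 9.17 FPKM in the METTL3-Flox livers. All METTL3-HKD livers were above all METTL3-Flox livers, with a log2 fold change of 0.27 and an adjusted p of 0.0614 (limma). Mrpl19 encodes bL19m, a protein at the interface with the small subunit. METTL3-HKD livers had 2.69, 2.65, 2.83 and 2.09 FPKM and METTL3-Flox livers had 2.01, 1.69, 2.08 and 2.09 FPKM. The groups were separated by less than the last printed digit, between METTL3-HKD-4 and METTL3-Flox-4, and the log2 fold change of 0.36 had an adjusted p of 0.0899 (limma). Of the exon bases of Mrpl19, 36.0% lie opposite Gcfc2.

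Mrpl47 encodes uL29m, another protein of the tunnel exit, and had the largest positive value of the family at a log2 fold change of 0.38. The METTL3-HKD values were 2.89, 3.21, 3.33 and 2.98 FPKM and the METTL3-Flox values 3.14, 1.99, 2.02 and 2.46 FPKM. METTL3-Flox-1 fell within the METTL3-HKD values, and the adjusted p was 0.125 (limma). Of its exon bases, 24.2% lie opposite Actl6a or Ndufb5. The proteins of the stalk that recruits translation factors differed little, with a log2 fold change of -0.07 for Mrpl10 (group means of 22.5 and 23.7 FPKM) and -0.11 for Mrpl12 (32.3 to 37.0 FPKM in METTL3-HKD livers and 35.0 to 39.5 FPKM in METTL3-Flox livers).

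Among the 20 tested mitochondria-specific proteins of the large subunit, Mrpl41 was the only gene called, the median log2 fold change was -0.02, and 9 genes had a positive value. Mrpl51 had a log2 fold change of -0.22 with an adjusted p of 0.183 (limma). Mrps30 and Mrps18a carry names of the small subunit but encode the large subunit proteins mL65 and mL66. Mrps30 had a log2 fold change of 0.25 with an adjusted p of 0.197 (limma). Mrps18a was the large subunit gene nearest to 0, at 5.21 to 5.89 FPKM in the METTL3-HKD livers and 4.43 to 6.37 FPKM in the METTL3-Flox livers. Mrpl58, a peptidyl-tRNA hydrolase that became part of the large subunit and releases stalled chains, had a log2 fold change of 0.02 and a 95% interval from -0.19 to 0.23.

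Mrpl53 was listed at 0 FPKM in all 8 livers and was the 1 gene of the family that could not be tested. In the GENCODE M21 annotation of GRCm38, 88.0% of its exon bases also belong to Gm42688 on the same strand. Gm42688 itself was at a mean of 0.0960 FPKM. How reads shared by both genes were counted is not stated, so the 0 is not read as absence of the mRNA.

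The 26 small subunit genes held no call. The median log2 fold change was -0.12 for the 16 with a bacterial counterpart, of which 3 were positive, and 0.02 for the 10 mitochondria-specific genes, of which 5 were positive. Nearest to 0 was Mrps26 at -0.01, with a 95% interval from -0.30 to 0.29. None of the 26 had an unadjusted p under 0.05, against 9 of the 50 tested large subunit genes (18.0%) and 31.9% of all genes. The difference between the subunits was not tested. Mrps21 encodes bS21m and had a log2 fold change of -0.27. It was measured at 27.8 to 32.6 FPKM in the METTL3-HKD livers and 31.8 to 45.2 FPKM in the METTL3-Flox livers, and its adjusted p was 0.160 (limma).

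Mrps24 encodes uS3m, a protein at the entry of the mRNA channel. Its level was at 27.3, 29.7, 30.6 and 30.1 FPKM in the METTL3-HKD livers and at 43.2, 32.1, 33.5 and 32.0 FPKM in the METTL3-Flox livers. The groups did not overlap, METTL3-Flox-1 stood far above the other METTL3-Flox livers, and the log2 fold change of -0.25 had an adjusted p of 0.163 (limma). Of its exon bases, 15.4% also belong to Urgcp on the same strand. Mrps12, which encodes uS12m of the decoding centre, had a log2 fold change of -0.24 with an adjusted p of 0.222 (limma).

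Mammals have 3 paralogs of the bacterial protein bS18, and they occupy different places in the mitoribosome. Mrps18c encodes the small subunit protein in the bacterial position and had a log2 fold change of -0.13. Mrps18b encodes the small subunit protein mS40 and had a log2 fold change of 0.32 with an adjusted p of 0.191 (limma). The METTL3-HKD values were 9.71, 10.8, 12.8 and 12.3 FPKM and the METTL3-Flox values 11.2, 7.14, 8.31 and 10.2 FPKM, so the groups overlapped. Its value is uncertain, since the pseudogene Gm13552, at a mean of 4.47 FPKM, is 99.8% identical to it over 417 bases. Mrps27, a pentatricopeptide repeat protein, and Mrps22 had log2 fold changes of -0.20 and 0.15 with adjusted p of 0.200 and 0.536 (limma).

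Levels within the family spanned 37.6-fold on the FPKM scale, which is per gene length. Mrpl34, which encodes bL34m, had the highest mean over 8 livers at 58.9 FPKM, and Mrpl52 had the highest mean of the mitochondria-specific large subunit proteins at 40.9 FPKM. Mrps12 and Mrps23 led the 2 classes of the small subunit at 34.6 and 15.2 FPKM. Mrps25 had the lowest mean of the tested genes at 1.57 FPKM, with 69.8% of its exon bases opposite Nr2c2. FPKM and the gene length used for it were strongly related across the 77 genes (Spearman's rho = -0.83), where the length is the union of all annotated exons for the 73 genes that have the same coordinates in GENCODE M21.

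Across the 77 genes, which share the same 8 libraries, log2 fold change went with gene length (Spearman's rho = 0.33) and against mean FPKM (rho = -0.38). Over the 13125 protein-coding genes tested, these values were 0.05 and -0.20. The 39 genes of up to 2255 bases had a median log2 fold change of -0.13, and the 38 longer genes had a median of -0.01. After a loess correction for gene length within each liver, the median of the family was -0.05, with 1 gene called higher and 4 lower. Over all genes, 1540 were then higher and 1230 lower, or 16.6%.

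In the summed level of the family, METTL3-Flox-1 stood apart. The summed FPKM of the 78 genes was 1009, 1065, 1107 and 1134 in the METTL3-HKD livers and 1347, 1075, 1081 and 1135 in the METTL3-Flox livers. METTL3-Flox-1 was the highest and METTL3-HKD-1 the lowest, and the remaining METTL3-HKD and METTL3-Flox livers overlapped. Of the 77 genes, 49 had their highest value in METTL3-Flox-1, or 63.6% against 17.2% of all genes tested. This was shared by cytosolic ribosomal protein genes (82.1%) and nuclear genes of oxidative phosphorylation (65.8%). In METTL3-HKD-1, 30 genes of the family had their lowest value, or 39.0% against 21.3% of all genes, 20.5% of the cytosolic ribosomal protein genes and 72.4% of the genes of oxidative phosphorylation. Without METTL3-Flox-1 the median log2 fold change was -0.01, with 3 genes called higher (Mrpl21, Mrpl3 and Mrpl47) and 2 called lower (Mrpl14 and Mrps36). That fit called 1406 genes higher and 1057 lower of all 16689 tested, or 14.8%. Without METTL3-HKD-1, METTL3-HKD-4, METTL3-Flox-3 or METTL3-Flox-4, Mrps36 was the 1 gene of the family still called. Calls over all genes also fell in those omissions, to between 6.62% and 11.0%, from 15.7% with all 8 livers.

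**Figure D3:**
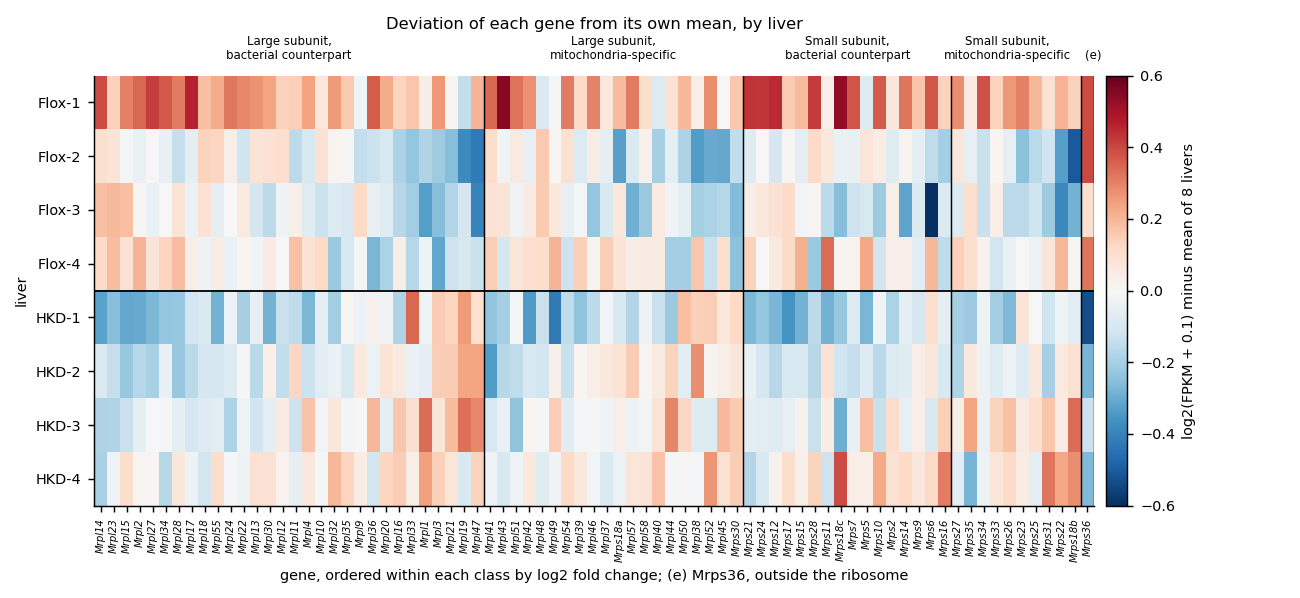
Log2(FPKM + 0.1) of each tested gene minus its mean over the 8 livers (colour, red above and blue below the mean), with livers in rows and genes in columns by class. METTL3-Flox-1 is above the mean for most genes of every class, while Mrps36 at the far right is above the mean in all 4 METTL3-Flox livers and below it in all 4 METTL3-HKD livers.

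The direction of the family depended on how libraries were scaled. The deposited values carry a scaling between libraries, and the library size they imply is 0.840 to 1.01 times the reads on genes in the METTL3-Flox livers and 1.01 to 1.17 times in the METTL3-HKD livers. Median-of-ratios scaling had the same factor, 1.01, in every liver, so the deposited values already stood on that scale. It sets the median ratio of genes above 0 in all livers equal between libraries, so a median of all genes near 0 largely follows from it. When the total of reads on genes set the scale of every library instead, the median of all genes moved from -0.00 to 0.20, the median of the family from -0.07 to 0.15, and the number of positive genes from 29 to 63. Relative to the median of all genes, the family stood at -0.07 under the first scaling and at -0.05 under the second. Under the second, 8 genes were called higher (Mrpl1, Mrpl3, Mrpl19, Mrpl21, Mrpl47, Mrps16, Mrps18b and Mrps30) and Mrps36 alone was called lower. Over all 16675 genes tested on that scale, 2310 were called higher and 374 lower, or 16.1% in all. Of all calls 86.1% were higher, against 57.7% with the deposited scaling. The summed level then lay between 1118 and 1226 in the METTL3-HKD livers and between 999 and 1137 in the METTL3-Flox livers. On this scale METTL3-Flox-1 was no longer the highest liver and METTL3-HKD-1, at 1170, was no longer the lowest but the second highest.

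**Figure D4:**
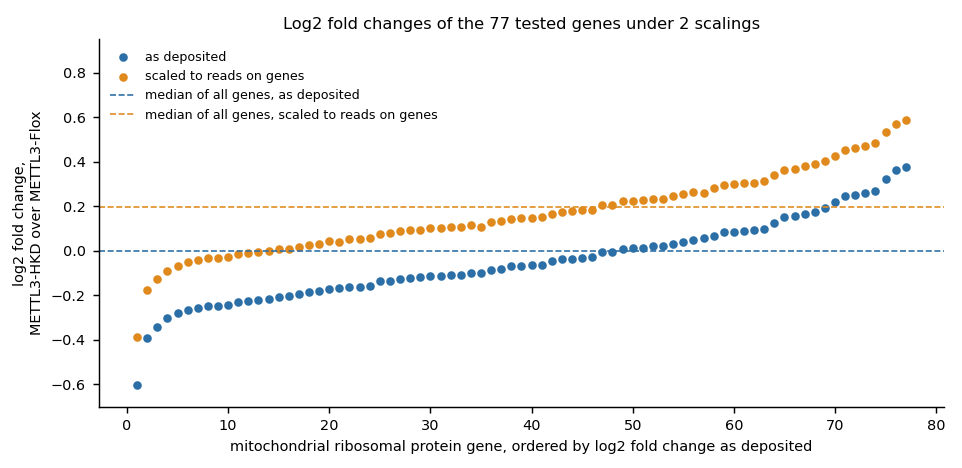
Log2 fold change of the 77 tested genes, ordered by their value as deposited (blue), beside the value after scaling to the reads on genes (orange). Dashed lines give the medians of all genes tested, -0.00 and 0.20. Both series have the same shape and most points lie below their own dashed line, while the count of positive genes goes from 29 to 63.

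Cell type markers differed between the groups, and the livers were sequenced whole, so fewer cells of a type and less RNA per cell cannot be told apart. All 8 neutrophil markers were higher in METTL3-HKD livers, with a summed level of 331 to 1618 FPKM against 13.1 to 44.8 FPKM. Of 5 erythrocyte markers 4 were higher, at a summed level of 185 to 597 against 48.2 to 107 FPKM. The other erythrocyte marker had a log2 fold change of -0.98 and was not called. Of 5 cholangiocyte markers 4 were higher, at 119 to 369 against 52.5 to 77.6 FPKM. That sum rested largely on 1 marker, as the highest mean was 134 FPKM and the median of the means 1.53 FPKM. Of 6 Kupffer cell markers 4 were lower, at 62.6 to 140 against 140 to 347 FPKM. Of 9 hepatocyte markers Hnf4a alone was called lower, while all 9 had a negative log2 fold change, with a median of -0.36. Their summed level was 26363 to 38062 against 34746 to 38873 FPKM, with METTL3-HKD-1 and METTL3-HKD-2 the lowest livers. Of 6 endothelial markers 0 were called (53.9 to 64.9 against 55.9 to 64.7 FPKM), of 6 stellate cell markers 1 was higher and 1 lower (32.4 to 45.8 against 29.1 to 45.0 FPKM), and 2 of 6 lymphocyte markers reached the minimum with 0 called (0.244 to 1.34 against 0.324 to 0.646 FPKM). No marker was listed at 0 in all livers. Under scaling to the reads on genes, 0 of the Kupffer cell and hepatocyte markers were called, and 5 of 5 cholangiocyte markers were higher. The median of the hepatocyte markers was then -0.14, with 3 positive values. The part of cell composition in the values of the family was not tested.

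The genes that act with these proteins were described from 7 lists, which hold 117 tested genes. Of these, 10 were higher and 4 lower in METTL3-HKD livers (limma, adjusted p under 0.05), or 8.55% and 3.42% against 9.05% and 6.63% of all genes. Single livers weighed on these counts. There were 6 higher and 1 lower without METTL3-HKD-1 or METTL3-HKD-2, 6 higher without METTL3-Flox-2, 5 higher and 1 lower without METTL3-Flox-3 or METTL3-Flox-4, and 2 lower without METTL3-HKD-4. With libraries scaled by gene reads there were 22 higher and 1 lower. Over all genes, 6.62% to 16.8% were called when 1 liver was left out, and 16.1% after that scaling.

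Mitoribosomal proteins whose symbols do not begin with Mrp numbered 5. Ptcd3, the pentatricopeptide repeat protein mS39 that lies at the mRNA entry of the small subunit, was higher. It was measured at 4.88, 5.41, 4.85 and 5.08 FPKM in the METTL3-HKD livers and at 3.86, 4.43, 3.55 and 3.85 FPKM in the METTL3-Flox livers, without overlap. The log2 fold change was 0.36 with an adjusted p of 0.0394 (limma). The call held in 8 of 19 alternatives, and METTL3-Flox-2 was the 1 liver whose omission kept it. Chchd1, Dap3, Aurkaip1 and Gadd45gip1 had log2 fold changes between -0.09 and 0.10 and were not called.

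Among 28 assembly factors, 2 were higher and 1 was lower. Trub2, a pseudouridine synthase that acts on mitochondrial RNA, was measured at 3.05, 3.07, 3.09 and 2.94 FPKM in the METTL3-HKD livers and at 2.11, 1.90, 1.66 and 2.19 FPKM in the METTL3-Flox livers. All METTL3-HKD livers were higher, with a log2 fold change of 0.61 and an adjusted p of 0.0115 (limma) that stayed under 0.05 in all 19 alternatives. Fastkd2, an RNA-binding protein needed for the larger mitochondrial ribosomal RNA, had a log2 fold change of 0.42 with an adjusted p of 0.0282 (limma). Mtg1, a GTPase of large subunit assembly, had a log2 fold change of -0.37 with an adjusted p of 0.0488 (limma) and was not called under scaling to the reads on genes. The call of Fastkd2 held in 2 of the 8 omissions of a liver (METTL3-HKD-2 and METTL3-Flox-1) and that of Mtg1 in 1 (METTL3-HKD-3). Rpusd4, another pseudouridine synthase, had a log2 fold change of 0.58 with an adjusted p of 0.0698 (limma).

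Of 19 translation factors and related proteins, 0 were higher and Metap1d, the mitochondrial methionine aminopeptidase, was lower. Its level was 5.06 to 5.56 FPKM in the METTL3-HKD livers and 6.33 to 7.48 FPKM in the METTL3-Flox livers, a log2 fold change of -0.35 with an adjusted p of 0.0302 (limma). Of 20 mitochondrial tRNA charging enzymes, Vars2, the valyl-tRNA synthetase, was lower, at 2.51 to 2.90 against 3.47 to 4.11 FPKM. Its log2 fold change was -0.44 with an adjusted p of 0.0215 (limma). Neither call held under scaling to the reads on genes, where the log2 fold changes were -0.14 and -0.23. Both were lost without METTL3-HKD-1, METTL3-HKD-2, METTL3-Flox-3 or METTL3-Flox-4, and Metap1d also without METTL3-HKD-4. Next among the translation factors, and not called, was Gfm2, a factor of ribosome recycling, with a log2 fold change of -0.24.

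Of 21 genes for mitochondrial transcription and RNA processing, 2 were higher. Trmt10c, a subunit of mitochondrial RNase P and a tRNA methyltransferase, was measured at 11.6, 11.1, 7.54 and 8.26 FPKM in the METTL3-HKD livers and at 6.05, 4.99, 4.08 and 4.57 FPKM in the METTL3-Flox livers. METTL3-HKD-1 and METTL3-HKD-2 were the highest, and the log2 fold change of 0.95 had an adjusted p of 0.0112 (limma) and held in all 19 alternatives. Tbrg4, an RNA-binding protein of the FASTK family, had a log2 fold change of 0.35 with an adjusted p of 0.0273 (limma), and its call was lost without METTL3-HKD-1, METTL3-HKD-2, METTL3-Flox-2, METTL3-Flox-3 or METTL3-Flox-4. Tfb2m, a factor for initiation by the mitochondrial RNA polymerase, had a log2 fold change of 0.44 with an adjusted p of 0.0587 (limma).

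Of 9 transcriptional regulators of mitochondrial genes, 3 were higher. Pprc1, a coactivator related to PGC-1, was measured at 3.85, 3.59, 2.94 and 2.89 FPKM in the METTL3-HKD livers and at 2.23, 1.27, 1.40 and 1.45 FPKM in the METTL3-Flox livers. Myc, a growth-related transcription factor, was measured at 9.06, 5.72, 3.63 and 4.34 FPKM against 2.07, 2.41, 1.36 and 1.21 FPKM. Neither gene had an overlap between groups. The log2 fold changes were 1.04 for Pprc1 and 1.60 for Myc with adjusted p of 0.0104 and 0.0130 (limma), and both calls held in all 19 alternatives.

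Nrf1, the factor whose word was searched in the promoters, was measured at 1.70, 1.29, 1.48 and 1.25 FPKM in the METTL3-HKD livers and at 0.979, 0.867, 0.979 and 0.918 FPKM in the METTL3-Flox livers. All METTL3-HKD livers were higher, with a log2 fold change of 0.55 and an adjusted p of 0.0303 (limma) that held in 11 of 19 alternatives. Of the omissions of a liver, those of METTL3-HKD-4 and METTL3-Flox-1 kept the call. Gabpa and Yy1, whose products bind the ETS and YY1 words, had log2 fold changes of 0.14 and -0.07 and were not called. The NRF1 word lay in the windows of 7 genes of the family. Mrpl10, whose stretch is printed above, had a log2 fold change of -0.07 with a 95% interval from -0.25 to 0.11. The others were at 0.32 (Mrps18b), 0.03 (Mrpl9), 0.01 (Mrpl32), -0.09 (Mrpl39), -0.12 (Mrpl22) and -0.21 (Mrpl17), and none was called. Under scaling to the reads on genes Mrps18b was called higher, at 0.53. A relation between Nrf1 and these genes was not tested.

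Among 15 transcripts of mitochondrial DNA, the ribosomal RNAs were higher and mt-Nd3 was lower. The larger ribosomal RNA, mt-Rnr2, was listed at 1372, 1733, 565 and 647 FPKM in the METTL3-HKD livers and at 345, 217, 240 and 202 FPKM in the METTL3-Flox livers. The smaller one, mt-Rnr1, was listed at 1299, 1619, 386 and 567 FPKM against 384, 249, 257 and 254 FPKM. METTL3-HKD-1 and METTL3-HKD-2 stood far above the other livers for both. The log2 fold changes were 1.97 and 1.55 with adjusted p of 0.0115 and 0.0414 (limma). The call of mt-Rnr2 held in all 18 alternatives that tested it, and that of mt-Rnr1 in 10 of 18. It was lost without METTL3-HKD-1, without METTL3-HKD-2 and without any of the METTL3-Flox livers. The libraries were made with a kit for mRNA, and how ribosomal RNA was depleted is not given in the sources used here.

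The mRNAs of mitochondrial DNA did not follow the ribosomal RNAs. mt-Nd3, a subunit of complex I, was measured at 41.9, 39.0, 49.3 and 43.9 FPKM in the METTL3-HKD livers and at 67.5, 71.8, 57.7 and 59.4 FPKM in the METTL3-Flox livers, without overlap. Its log2 fold change was -0.56 with an adjusted p of 0.0134 (limma), and the call held in each omission of a liver and under scaling to the reads on genes, where the log2 fold change was -0.34, but not with the replicate block, where the adjusted p was 0.0543. The log2 fold changes of the others, from mt-Atp8 at -0.66 to mt-Nd4l at 0.34, did not pass the test.

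**Figure D5:**
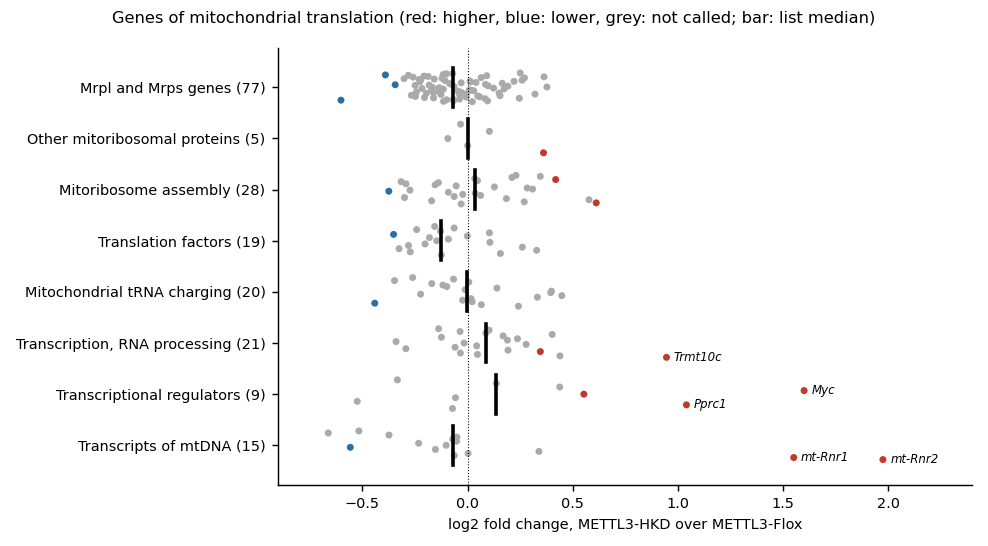
Log2 fold change of each tested gene, METTL3-HKD over METTL3-Flox, for the mitochondrial ribosomal protein genes and 7 lists of genes that act with them (red higher, blue lower, grey not called, black bar the median). The family sits in a narrow band around -0.07, while Myc, Pprc1, Trmt10c, mt-Rnr1 and mt-Rnr2 lie at 0.95 or above; under scaling to the reads on genes the median of the family is 0.15.

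The cytosolic ribosomal protein genes and the nuclear genes of oxidative phosphorylation are set beside the family as families of like size. Of 78 tested cytosolic ribosomal protein genes, 0 were called and 1 had an unadjusted p under 0.05, with a median log2 fold change of -0.02 and 31 positive values. Of 76 tested genes of oxidative phosphorylation, 0 were higher and 3 lower (Ndufv3, Ndufs6 and Ndufa1, all subunits of complex I), with a median of -0.19 and 3 positive values. There, 21 genes had an unadjusted p under 0.05, or 27.6% against 31.9% of all genes, and 20 of them were lower. Lower genes at that threshold made up 15.1% of all genes. Groups did not overlap for 18 genes, all lower, or 23.7%. Over all genes, 9.95% were lower without overlap, and 22.6% had no overlap in either direction. Ndufs6 and Ndufa1 were called in 9 and 6 of 19 alternatives, in 2 and 1 of the 8 omissions of a liver, and not under scaling to the reads on genes, where Ndufv3 alone remained lower. Under scaling to the reads on genes, the medians were 0.19 and 0.03, with 77 and 51 positive values, and relative to the median of all genes they were -0.00 and -0.17. Differences between these families were not tested.

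N6-methyladenosine lies in a sequence context of which GGACT is the best known word. The longest coding transcript of the 77 tested genes held a median of 1 such word at 1.02 per kilobase, and that of 13091 tested protein-coding genes held a median of 3 at 1.10 per kilobase, in transcripts of a median of 1339 against 3010 bases. The transcripts of Mrps36, Mrpl14 and Mrpl41 held 1 word each, in 701, 645 and 776 bases. Methylation was not measured in these libraries.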

How the data were processed

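Liver RNA of 8 mice was analysed in the groups given by the sample labels, 4 METTL3-HKD and 4 METTL3-Flox. The table the authors deposited holds FPKM of 54532 genes with gene length and coordinates on GRCm38, the build named in the submitters' processing notes. The aligner, the counting, its strand setting and the annotation are not given in the sources used here. FPKM multiplied by length and a library constant came within 0.05 of a whole number of reads for 100% of the values above 0, which gave the depth.

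Genes were tested where their mean reached 0.1 FPKM, on log2(FPKM + 0.1) with limma 3.58.1 (trend, two-sided) in R 4.3.3 and Benjamini-Hochberg adjustment over 16645 genes. Fold changes on this scale understate changes of low genes. Calls had an adjusted p under 0.05. Permutation tests enumerated all 70 arrangements in Python 3.11.15. The method was tested on simulated data. P-values measure the spread between these mice. Exon overlaps and transcripts came from GENCODE M21, and near-identical copies were searched with BLAST (at least 95% identity over 150 bases).

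The genes and lists were chosen with earlier results of these data known. Genes were named by a rule: those called, the 3 with the smallest p and the highest in each class, the 3 largest changes each way, those nearest 0, untested or lowest, the Mrps18 paralogs, Mrpl10, Mrpl12 and Mrpl58, and up to 4 of each list. Mettl3, genes in short counts, overlapping genes, the further genes with the NRF1 word, and Gadd45gip1, Gabpa, Yy1 and mt-Nd4l were named after their values were seen. For the scaling to the reads on genes, each library's FPKM were rescaled to its summed reads. Alternatives changed the pseudocount, the minimum, the scaling, a length correction, the trend, liver weights, a replicate block, the biotypes, the tool (voom on rebuilt reads) and the livers.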

Additional observations from a re-analysis of the deposited data

Results flagged for a closer look

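Mrps24, which encodes the small subunit protein uS3m, was measured at 43.2 FPKM in METTL3-Flox-1, while the next METTL3-Flox liver was at 33.5 FPKM and the lowest at 32.0 FPKM. The gap between METTL3-Flox-1 and the nearest liver was 0.861 of the range of the group, above Dixon's 95% critical value for 4 samples. Of the 56 groups of values tested in this way 1 passed, and chance alone passes about 1 group in 20. METTL3-Flox-1 was also the liver with the highest value for 49 of the 77 tested genes of the family.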

How the results depend on the processing

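Each result was recomputed under 19 alternatives. The counts of the family, 0 higher and 3 lower, became 1 higher with a minimum mean of 1 FPKM or with the length correction, 2 higher with liver weights, and 8 higher and 1 lower after scaling to the reads on genes. After that scaling 2310 genes were higher and 374 lower among all 16675 tested. The minimum of 1 FPKM, the length correction and the liver weights called 22.5%, 16.6% and 18.4% of all genes. There was 1 lower without the mean-variance trend and 1 with the replicate block. With an added log2 fold change of at least 1 there were 0 lower. When 1 liver was left out, there were 0 to 3 higher and 1 to 2 lower, while 6.62% to 16.8% of all genes were called. The median log2 fold change of the family, -0.07, became 0.15 after that scaling and lay between -0.12 and -0.01 when 1 liver was left out. The 10 higher and 4 lower genes of the 7 lists became 22 and 1 after that scaling. The lower genes of the lists numbered 2 without the trend and 0 with the replicate block. When 1 liver was left out, there were 5 to 9 higher and 1 to 5 lower. Omitting a liver leaves fewer samples to test, and the other causes were not tested. For the single genes named, 439 of the recomputed values stayed on their side of the threshold, 15 passed it newly and 21 no longer passed, and 0 called values changed sign. Replicate numbers are shared by the groups but did not pair the livers: livers with the same number had correlations of their deviations of 0.07, -0.08, -0.01 and -0.03, not every liver correlated best with its own number, and with the replicate block 1616 genes were called against 2610. With voom on rebuilt reads 2744 genes were called. Median-of-ratios scaling had a factor of 1.01 in all livers and could hardly move a result. It is 1 of the 19 alternatives, and a call that held under it gained nothing from it. Depth limits the genes of few reads, down to 48 per liver.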
